A study of Aspergillus niger with 16 samples.

Results

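Of 11580 genes of the filamentous fungus Aspergillus niger listed in at least 1 library, 63 (0.544%) had higher transcript levels without *gaaR* after 2 h on either carbon source. Later on pectin the 2 strains were less than 2-fold apart in these genes, by the ratio described below. The 63 genes were chosen by the measured values themselves. For each condition the log2 ratio of the mean FPKM plus 1 in the deletion strain over that in the reference strain was formed, with 2 libraries a group. FPKM is a read level corrected for gene length and library total. A member had a log2 ratio of at least 1, which is a 2-fold difference, on D-galacturonic acid (GA) at 2 h and on sugar beet pectin (SBP) at 2 h, and a log2 ratio between -1 and 1 on SBP at both later times, 8 h and 24 h. The tag NRRL3_05407 was left out by the rule. The differences between strains within a condition therefore describe the choice, and nothing is read from a test of them.

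The groups were a *gaaR* deletion strain (ΔgaaR, CBS 141258) and a reference strain (CBS 141257), each on GA for 2 h and on SBP for 2, 8 and 24 h, with 2 libraries a group and 16 in all. Other alleles of these strains are not given in the sources used here, and the deletion is represented by 1 strain. Every culture was started for 16 h in complete medium that held 2% fructose, and the washed mycelium was moved to minimal medium of pH 6 with 25 mM GA or 1% SBP, at 30 °C and 250 rpm. The labels do not say whether the 2 libraries of a group were separate cultures. All p-values therefore refer to the spread between these libraries alone, and that spread may be technical.

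Pectin is a plant cell wall polymer whose backbone is built largely of GA. A. niger secretes enzymes that free GA from it, takes GA up and breaks it down in the cell. GaaR is the transcriptional activator of the genes for these steps, and GaaX, encoded beside it, is known as the repressor that keeps GaaR inactive without inducer. Genes that depend on the activator lose transcript in its absence, and the 63 genes described here went the other way at 2 h. The identifiers are locus tags, which the sources used here do not pair with names or roles, so members are described by tag, level and pattern.

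Depth was similar across libraries, from 3203011 to 4574019 reads. The deleted gene, NRRL3_08195 by published knowledge, had 0 to 30 reads in the 8 ΔgaaR libraries, against 176 to 1984 reads in the 8 reference libraries. On GA the ΔgaaR libraries held 30 reads of it in replicate 1 and 1 in replicate 2, and on SBP at 2 h 0 in replicate 1 and 12 in replicate 2. The 2 ΔgaaR libraries stood apart from each other at 2 h, and members followed this split. Among 42 members with a mean of at least 10 FPKM, 29 (69.1%) were higher in replicate 2 than in replicate 1 on GA and higher in replicate 1 than in replicate 2 on SBP, against 20.3% of 7086 genes at that level, while the reverse pattern held for 6 members (14.3%) and 53.4% of genes. In these 29 members the higher ΔgaaR libraries were thus those with 1 and 0 *gaaR* reads. In the 6 of the reverse pattern, NRRL3_03212 and NRRL3_03213 among them, they were those with 30 and 12. The choice of members bears on these shares, since the rule takes the mean of the 2 ΔgaaR libraries in a condition. The part of this split in the results was not tested, and values without single libraries are given below. In bulk RNA, more cells with a transcript and more of it per cell cannot be told apart.

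**Figure D1:**
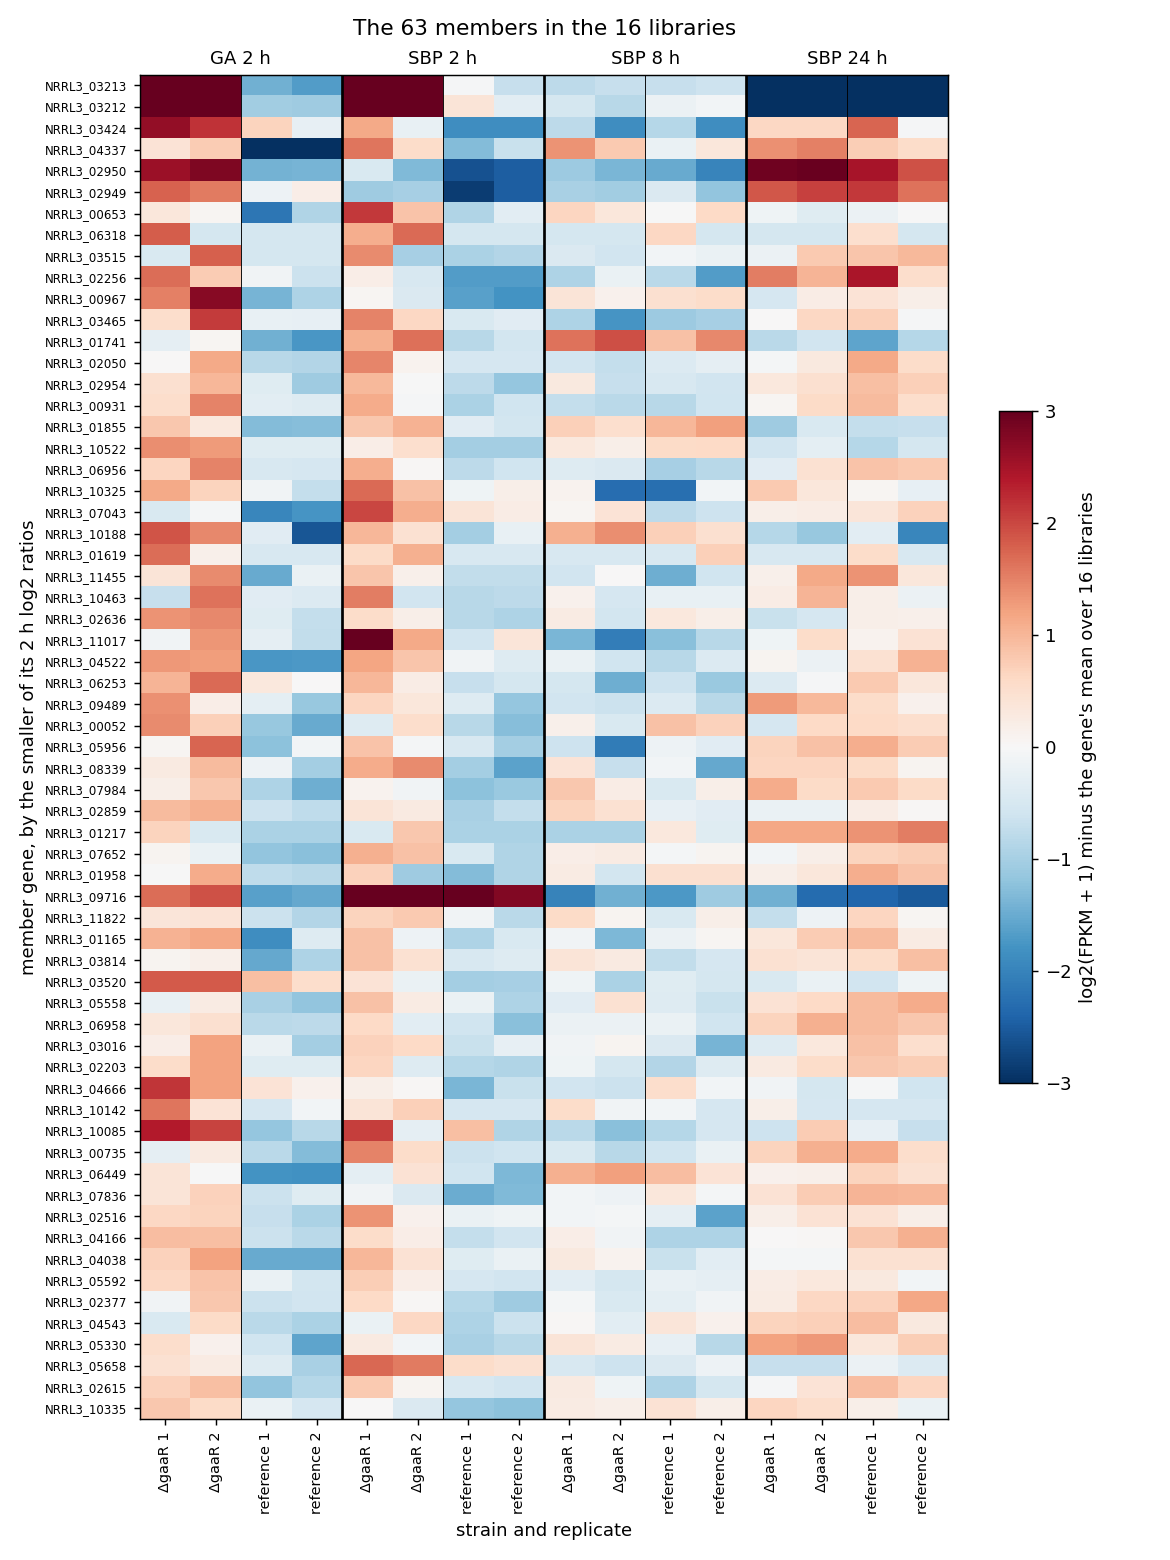
Each row is 1 of the 63 members and each column 1 of the 16 libraries, and colour gives log2(FPKM + 1) minus the gene's mean over all libraries, cut at 3 either way. Rows run from the highest to the lowest value of the smaller of the 2 h log2 ratios. The ΔgaaR columns at 2 h are redder than the reference columns beside them, and at 8 h and 24 h the strains are closer, as the rule asks.

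By sum over the 63 members, the level was 9765 and 16654 FPKM in ΔgaaR on GA, against 4133 and 3929 FPKM in the reference. On SBP at 2 h it was 16536 and 7992 FPKM in ΔgaaR, against 4512 and 4494 FPKM in the reference. The ranges did not overlap, and the reference libraries lay close together. At 8 h the sum was 5698 and 4827 FPKM in ΔgaaR and 5330 and 5594 FPKM in the reference. By 24 h it was 7371 and 9561 FPKM in ΔgaaR and 12338 and 9769 FPKM in the reference, whose 2 values were both above the ΔgaaR values, although without the 3 members of the highest level the strains overlapped. The rule itself makes these sums higher in ΔgaaR at 2 h. Without the 3 members of the highest level the sums on GA were 6257 and 7251 FPKM in ΔgaaR and 1833 and 1681 FPKM in the reference, and on SBP at 2 h 6007 and 4371 FPKM in ΔgaaR and 2011 and 1948 FPKM in the reference.

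Log2 ratios ranged from 1.01 to 7.21 on GA, with a median of 1.58, and from 1.00 to 4.20 on SBP at 2 h, with a median of 1.25. Over all genes the medians were 0.11 and 0.04. The ratio was larger on GA than on SBP for 45 of 63 members. On GA 13 members reached 4-fold (a log2 ratio of 2), on SBP 8 did, and 4 did on both. Across members the 2 ratios had a Pearson correlation of 0.66, as a description over genes measured in the same libraries, and of 0.14 over the 61 members left without NRRL3_03212 and NRRL3_03213. Both ΔgaaR libraries lay above both reference libraries for 61 members on GA (36.4% of all genes did), for 60 on SBP at 2 h (27.4% of all genes) and for 58 in both conditions (12.8%). At 8 h both ΔgaaR libraries lay above both reference libraries for 20 members (33.7% of all genes) and below them for 17 (33.5%), and at 24 h above for 10 (40.6%) and below for 25 (23.3%). The rule used these comparisons, so nothing is read from these counts. In the 5 members that overlapped at 2 h, NRRL3_01958, NRRL3_03515, NRRL3_06318, NRRL3_10085 and NRRL3_10463, 1 ΔgaaR library lay within or below the reference range in at least 1 condition.

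**Figure D2:**
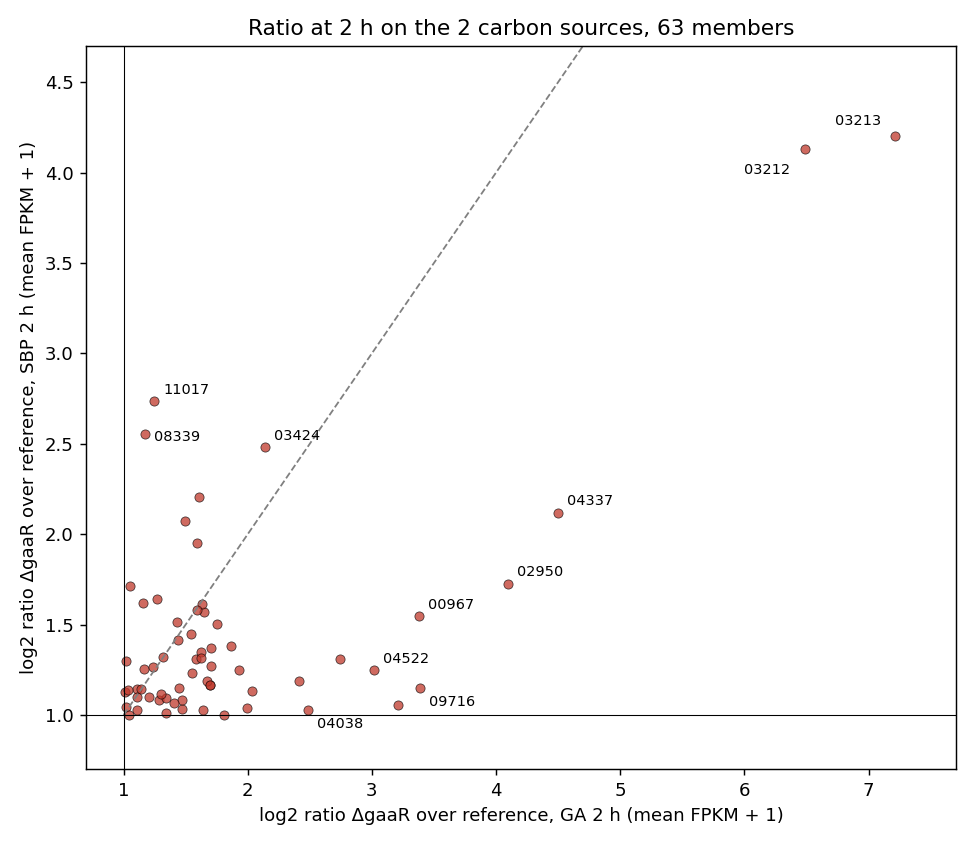
Each point is 1 of 63 members, with its log2 ratio of ΔgaaR over reference on GA at 2 h on the x axis and on SBP at 2 h on the y axis. The solid lines mark the threshold of 1 and the dashed line equal ratios. Most points lie near the lower left corner, and NRRL3_03212 and NRRL3_03213 stand alone above 4 on both axes.

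The members form 19.9% of the 316 genes with a log2 ratio of at least 1 in both 2 h conditions. Of these 316 genes, 190 had a ratio of at least 1 at 8 h too, 68 at 24 h, and 55 at both times. A log2 ratio of -1 or below was seen for 16 of them at 8 h and for 73 at 24 h. At the threshold of 2 h the nearest members were NRRL3_10335 (smaller log2 ratio 1.00), NRRL3_02615 (1.00) and NRRL3_05658 (1.01), and the nearest genes outside were NRRL3_03027 (0.99), NRRL3_07460 (0.99) and NRRL3_02158 (0.99). At 8 h NRRL3_04337 (1.00, just under) and NRRL3_04166 (0.99) were inside, while NRRL3_05255 (1.00, just over) and NRRL3_07752 (1.00, just over) were outside. At 24 h NRRL3_04166 (-0.92) and NRRL3_04522 (-0.82) were inside, and NRRL3_00783 (-1.02) and NRRL3_09376 (-1.08) outside. The member list depended on single libraries. Counting again without 1 library at a time gave 49 to 91 genes, and 11 members met the rule in all 16 such counts. These 11 were NRRL3_00653, NRRL3_00967, NRRL3_01741, NRRL3_01855, NRRL3_02636, NRRL3_02859, NRRL3_02949, NRRL3_03212, NRRL3_03213, NRRL3_07652 and NRRL3_10522. Without ΔgaaR replicate 1 on SBP at 2 h, 34 of the 63 members still met it, and without ΔgaaR replicate 2 on GA, 45 did.

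In edgeR's quasi-likelihood test over 10003 genes, which 59 members entered, 52 members were called higher in ΔgaaR on GA (26.2% of all genes tested) and 39 on SBP at 2 h (7.35%), at an adjusted p under 0.05. At 8 h 4 were called higher (22.4%) and 1 lower (21.4%), and at 24 h 4 lower (15.8%). The rule used these comparisons, so nothing is read from the counts. The 4 members not tested, NRRL3_01217, NRRL3_01619, NRRL3_06318 and NRRL3_10142, had at most 12 reads in any library.

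The pair NRRL3_03212 and NRRL3_03213, with consecutive tags, differed most between strains. NRRL3_03212 had 824 and 620 FPKM in ΔgaaR on GA, against 7.08 and 7.04 FPKM in the reference. On SBP at 2 h it had 230 and 390 FPKM in ΔgaaR, against 20.9 and 12.6 FPKM in the reference. At 8 h both strains were low, with 10.6 and 8.34 FPKM in ΔgaaR and 13.8 and 14.9 FPKM in the reference, and at 24 h ΔgaaR had no read and the reference 0.41 and 0.20 FPKM. NRRL3_03213 followed the same course, with 475 and 441 FPKM in ΔgaaR on GA, against 2.34 and 1.84 FPKM in the reference, and 96.7 and 167 FPKM in ΔgaaR on SBP at 2 h, against 7.81 and 4.64 FPKM in the reference. At 8 h its levels were 4.29 and 4.63 FPKM in ΔgaaR and 4.66 and 4.88 FPKM in the reference. For both genes the ΔgaaR libraries at 2 h lay far above every other library. Their replicate order was opposite to that of most members, with replicate 1 the higher on GA and replicate 2 on SBP.

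The rule did not use comparisons over time or between carbon sources within 1 strain, but they rest on the same libraries and are not independent of the choice. In ΔgaaR, NRRL3_03212 fell between 2 h and 8 h on SBP by 5.12 on the log2 scale (SE 0.29, adjusted p = 2.8e-08) and NRRL3_03213 by 4.97 (SE 0.31, adjusted p = 2.8e-08), in edgeR's test as for every adjusted p here. Between 8 h and 24 h NRRL3_03212 became at least 14.5-fold lower in ΔgaaR (0 against 77 reads, from a floor of 3 reads per library, used where a group had no read) and 47.3-fold lower in the reference (3 against 116 reads, 95% counting interval 15.8 to 232). NRRL3_03213 had 1 read at 24 h in each strain, against 53 reads in ΔgaaR and 56 in the reference at 8 h, ratios of 59.5 (interval 10.2 to 2400) and 68.4 (11.8 to 2750). These intervals cover counting error only, and ratios that rest on 1 to 3 reads are not comparable with the bound. The strains differed in which carbon source gave the higher level of this pair. In ΔgaaR both genes were lower on SBP than on GA at 2 h, by -1.19 for NRRL3_03212 (SE 0.23, adjusted p = 0.0013) and -1.78 for NRRL3_03213 (SE 0.24, adjusted p = 5.4e-05). In the reference both were higher on SBP, by 1.19 (SE 0.30, adjusted p = 0.0036) and 1.52 (SE 0.37, adjusted p = 0.0028), and these 2 calls were lost without reference replicate 1 on SBP (adjusted p = 0.073 for NRRL3_03212 and 0.051 for NRRL3_03213).

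**Figure D3:**
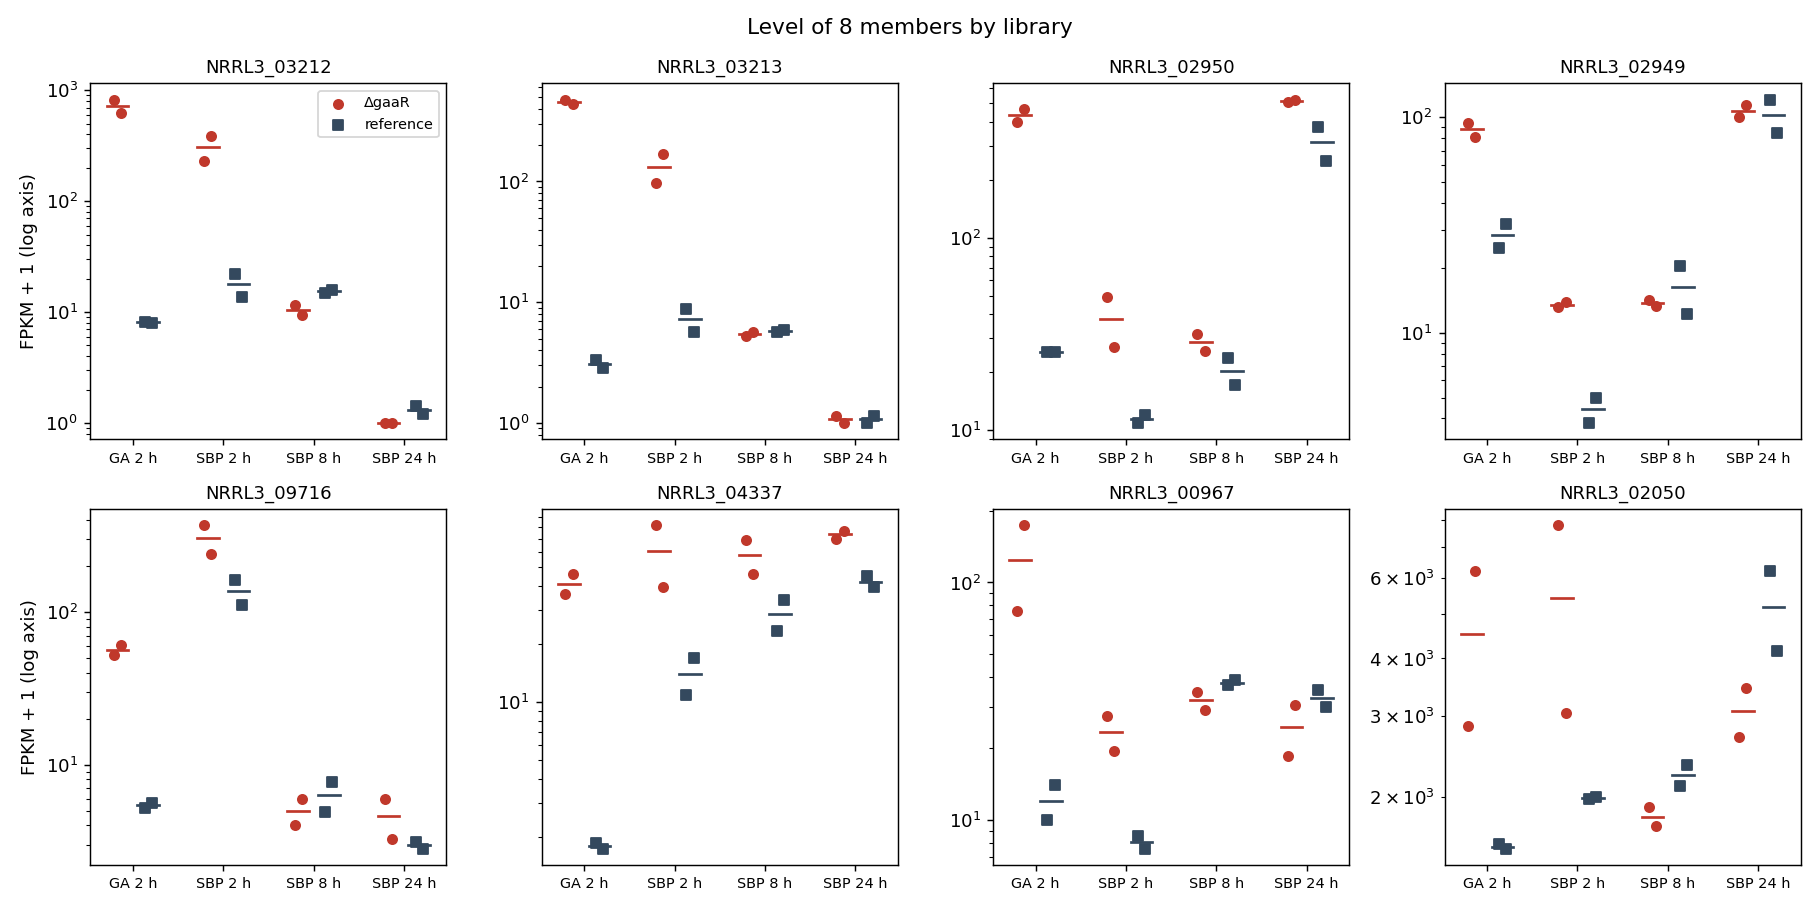
FPKM plus 1 of 8 members in each library, on a log axis that differs between panels, with ΔgaaR as circles left of the reference as squares and a line at each mean of 2 libraries. NRRL3_03212 and NRRL3_03213 fall to the bottom of the axis at 24 h, while NRRL3_02950 and NRRL3_02949 are high on GA in ΔgaaR and again at 24 h in both strains.

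Another pair with consecutive tags, NRRL3_02949 and NRRL3_02950, was high in ΔgaaR at 2 h on GA and in both strains late on pectin. NRRL3_02950 had 398 and 468 FPKM in ΔgaaR on GA, against 24.4 and 24.4 FPKM in the reference, and 48.0 and 25.9 FPKM in ΔgaaR on SBP at 2 h, against 9.90 and 11.0 FPKM in the reference. At 24 h it reached 509 and 522 FPKM in ΔgaaR and 374 and 251 FPKM in the reference. NRRL3_02949 had 93.2 and 80.3 FPKM in ΔgaaR on GA, against 23.7 and 30.8 FPKM in the reference, and at 24 h 99.6 and 113 FPKM in ΔgaaR and 120 and 83.8 FPKM in the reference. Strains overlapped for NRRL3_02949 at 24 h and did not for NRRL3_02950, in which ΔgaaR was the higher. Both genes rose from 8 h to 24 h in either strain. NRRL3_02950 changed by 3.94 in ΔgaaR (SE 0.34, adjusted p = 5.6e-07) and 3.94 in the reference (SE 0.35, adjusted p = 2.1e-07), and NRRL3_02949 by 2.79 (SE 0.28) and 2.66 (SE 0.27). On SBP at 2 h both were lower than on GA, NRRL3_02950 by -3.48 in ΔgaaR (SE 0.33) and -1.27 in the reference (SE 0.36), the reference call lost without reference replicate 1 on SBP (adjusted p = 0.059), and NRRL3_02949 by -2.74 in ΔgaaR (SE 0.28) and -3.04 in the reference (SE 0.34). In the reference NRRL3_02949 also rose from 2 h to 8 h, by 2.02 (SE 0.36).

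How members differed between carbon sources at 2 h was then examined in each strain. In ΔgaaR 7 of 59 members were called higher on SBP than on GA (16.1% of all genes) and 12 lower (14.9%). In the reference 12 were called higher (27.3% of all genes) and 9 lower (25.3%). These shares were near or below the background. The 12 lower in ΔgaaR, a slightly larger share, were 8 to 20 without single libraries. The median log2 fold change over the tested members was -0.37 in ΔgaaR and 0.04 in the reference, beside 0.03 and 0.06 over all genes tested. Counts moved with single libraries: in ΔgaaR 4 members were called higher without GA replicate 1 and 11 without SBP replicate 2, and 20 lower without SBP replicate 1, while the reference gave 6 higher and 4 lower without SBP replicate 1.

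Called higher on SBP in both strains were 4 of 59 members (7.61% of all genes), NRRL3_01741, NRRL3_05658, NRRL3_07043 and NRRL3_09716. NRRL3_09716 had 367 and 237 FPKM in ΔgaaR and 161 and 110 FPKM in the reference on SBP at 2 h, and 51.0 and 60.1 FPKM in ΔgaaR and 4.24 and 4.58 FPKM in the reference on GA. Its change on SBP over GA was 2.50 in ΔgaaR (SE 0.34, adjusted p = 5.3e-05) and 4.88 in the reference (SE 0.41, adjusted p = 1.6e-07). On SBP its level was highest at 2 h among the times sampled, in both strains. By 8 h it had fallen to 3.04 and 4.98 FPKM in ΔgaaR and 3.93 and 6.75 FPKM in the reference, log2 changes of -6.37 (SE 0.43) in ΔgaaR and -4.79 (SE 0.41) in the reference. NRRL3_07043, the longest member at 2757 bp of coding length, was higher on SBP than on GA by 1.97 in ΔgaaR (SE 0.32) and 2.24 in the reference (SE 0.34), with 1.24 in ΔgaaR without SBP replicate 1. From 2 h to 8 h it fell by 1.56 in ΔgaaR (SE 0.32), or 0.84 without ΔgaaR replicate 1 at 2 h (adjusted p = 0.037), and by 1.17 in the reference (SE 0.32), the reference call lost without reference replicate 1 at 2 h or at 8 h (adjusted p = 0.053 and 0.078). NRRL3_01741, low throughout, had 7.66 and 12.0 FPKM in ΔgaaR and 1.33 and 1.82 FPKM in the reference on SBP at 2 h, and 2.43 and 3.26 FPKM in ΔgaaR and 0.51 and 0.22 FPKM in the reference on GA. It was higher on SBP by 1.77 in ΔgaaR (SE 0.45, adjusted p = 0.0076), a call lost without GA replicate 1 (adjusted p = 0.068), and in the reference it had 15 reads against 3, a ratio of 4.46 (95% counting interval 1.26 to 24.0). The reference call was lost without any 1 of its 4 libraries and with DESeq2 (adjusted p from 0.065 to 0.22).

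Called lower on SBP in both strains were 6 of 59 members (5.25% of all genes), NRRL3_02949, NRRL3_02950, NRRL3_03520, NRRL3_04666, NRRL3_10335 and NRRL3_10522. In ΔgaaR NRRL3_00967 was lower too, at -2.45 (SE 0.41, adjusted p = 0.00034) and -1.51 without GA replicate 2 (adjusted p = 0.0065), with 26.4 and 18.6 FPKM on SBP against 74.6 and 173 FPKM on GA. NRRL3_11017, at 167 and 33.1 FPKM on SBP and 13.5 and 37.6 FPKM on GA in ΔgaaR, was called higher at 2.03 (SE 0.66, adjusted p = 0.029). That call rested on 1 library, being 0.20 without SBP replicate 1 (adjusted p = 0.87), and the change was 3.17 without GA replicate 2. It was also lost without GA replicate 1 (1.41, adjusted p = 0.19) and with limma on log2(FPKM + 1) (adjusted p = 0.058). In the reference NRRL3_04337 had 36 reads on SBP against 2 on GA, a ratio of 16.1 (95% counting interval 4.13 to 138). NRRL3_02256 and NRRL3_03424 had no read in the reference on SBP at 2 h, which made NRRL3_02256 at least 2.48-fold lower there than on GA, a call lost with limma and without 3 of its 4 libraries (adjusted p from 0.064 to 0.097). For NRRL3_03424, with 6 reads on GA, no fold is given.

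The course on pectin was then followed in each strain. In ΔgaaR 18 of 59 members were called lower at 8 h than at 2 h (15.3% of all genes) and 1 higher (15%). In the reference 13 were called higher (21.0% of all genes) and 3 lower (19.5%). The median log2 fold change was -0.84 in ΔgaaR and 0.41 in the reference, beside -0.02 over all genes in the reference. The rule fixes that the ΔgaaR change lies below the reference change, so this difference has no test. By asking for high ΔgaaR and low reference levels at 2 h it also favours falls in ΔgaaR and rises in the reference, so the counts and the changes named below are not independent of the choice. For 14 members ΔgaaR fell and the reference was not called (7.84% of all genes), and for 11 the reference rose and ΔgaaR was not called (14.0%). In 1 member, NRRL3_07652, ΔgaaR fell by 0.89 (SE 0.21, adjusted p = 0.0041) and the reference rose by 0.55 (SE 0.21, adjusted p = 0.05 after rounding up). The first of these calls was lost without ΔgaaR replicate 1 at 2 h (adjusted p = 0.059) and the second under 7 of 9 alternatives. Of all genes tested, 1.64% were called lower in ΔgaaR and higher in the reference. A further 3 members fell in both strains (5.78% of all genes), 1 rose in both (5.38%), and 29 were called in neither (44.4%). The count of 18 was 9 without ΔgaaR replicate 1 at 2 h, 34 without ΔgaaR replicate 2 at 2 h and 10 without ΔgaaR replicate 2 at 8 h. The count of 3 lower in the reference was 1 without reference replicate 1 at 8 h.

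Members in which ΔgaaR fell included several of high level. NRRL3_00735 had 114 and 86.8 FPKM at 8 h in ΔgaaR against 435 and 228 FPKM at 2 h, a fall of 1.89 (SE 0.37, adjusted p = 0.0011). NRRL3_03465 had 26.6 and 14.5 FPKM at 8 h against 146 and 79.7 FPKM at 2 h, a fall of 2.63 (SE 0.55, adjusted p = 0.0018), and NRRL3_11017 had 4.97 and 2.67 FPKM against 167 and 33.1 FPKM, a fall of 4.91 (SE 0.86, adjusted p = 0.00042). In each of the 3 both libraries at 8 h lay below both at 2 h. Without ΔgaaR replicate 1 at 2 h the change was -1.16 for NRRL3_00735 (adjusted p = 0.027) and -3.07 for NRRL3_11017 (adjusted p = 0.0093). NRRL3_02050 was the member of the highest level, with 2856 and 6208 FPKM in ΔgaaR and 1573 and 1539 FPKM in the reference on GA, and 7799 and 3043 FPKM in ΔgaaR and 1973 and 1996 FPKM in the reference on SBP at 2 h. It fell in ΔgaaR by 1.77 (SE 0.46, adjusted p = 0.0083) to 1896 and 1721 FPKM at 8 h. The change was -0.72 without ΔgaaR replicate 1 at 2 h (adjusted p = 0.24), and the call was also lost without either ΔgaaR library at 8 h (adjusted p = 0.051 and 0.081). NRRL3_06253 fell by 1.76 (SE 0.39), NRRL3_06956 by 1.25 (SE 0.40) and NRRL3_05592 by 1.05 (SE 0.26). Without ΔgaaR replicate 1 at 2 h these were -1.13, -0.42 and -0.58, and none was called (adjusted p = 0.06, 0.49 and 0.13). Without ΔgaaR replicate 2 at 8 h none of these was called either (adjusted p from 0.071 to 0.15), and for NRRL3_06956 neither without replicate 1 at 8 h (adjusted p = 0.1).

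In other members the reference was called and ΔgaaR was not, with no test between the strains. NRRL3_00052 had 294 and 257 FPKM at 8 h in the reference against 88.8 and 65.1 FPKM at 2 h, a rise of 1.71 (SE 0.34, adjusted p = 0.00084). Its ΔgaaR levels were 122 and 231 FPKM at 2 h and 177 and 116 FPKM at 8 h, the latter both below the reference. NRRL3_00967 had 36.0 and 37.7 FPKM at 8 h in the reference against 7.53 and 6.57 FPKM at 2 h, a rise of 2.25 (SE 0.47, adjusted p = 0.0012), and ΔgaaR had 26.4 and 18.6 FPKM at 2 h. NRRL3_01741 rose in the reference by 2.26 (SE 0.50, adjusted p = 0.0019), to 6.53 and 10.3 FPKM, and ΔgaaR had 11.7 and 14.8 FPKM at 8 h. For all 3 the reference libraries at 8 h lay above those at 2 h. NRRL3_06449 rose in both strains, by 0.97 in ΔgaaR (SE 0.26, adjusted p = 0.01) and 1.58 in the reference (SE 0.28, adjusted p = 0.00032), the ΔgaaR call lost without ΔgaaR replicate 1 at 2 h (0.75, adjusted p = 0.1) or replicate 2 at 8 h (adjusted p = 0.051).

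**Figure D4:**
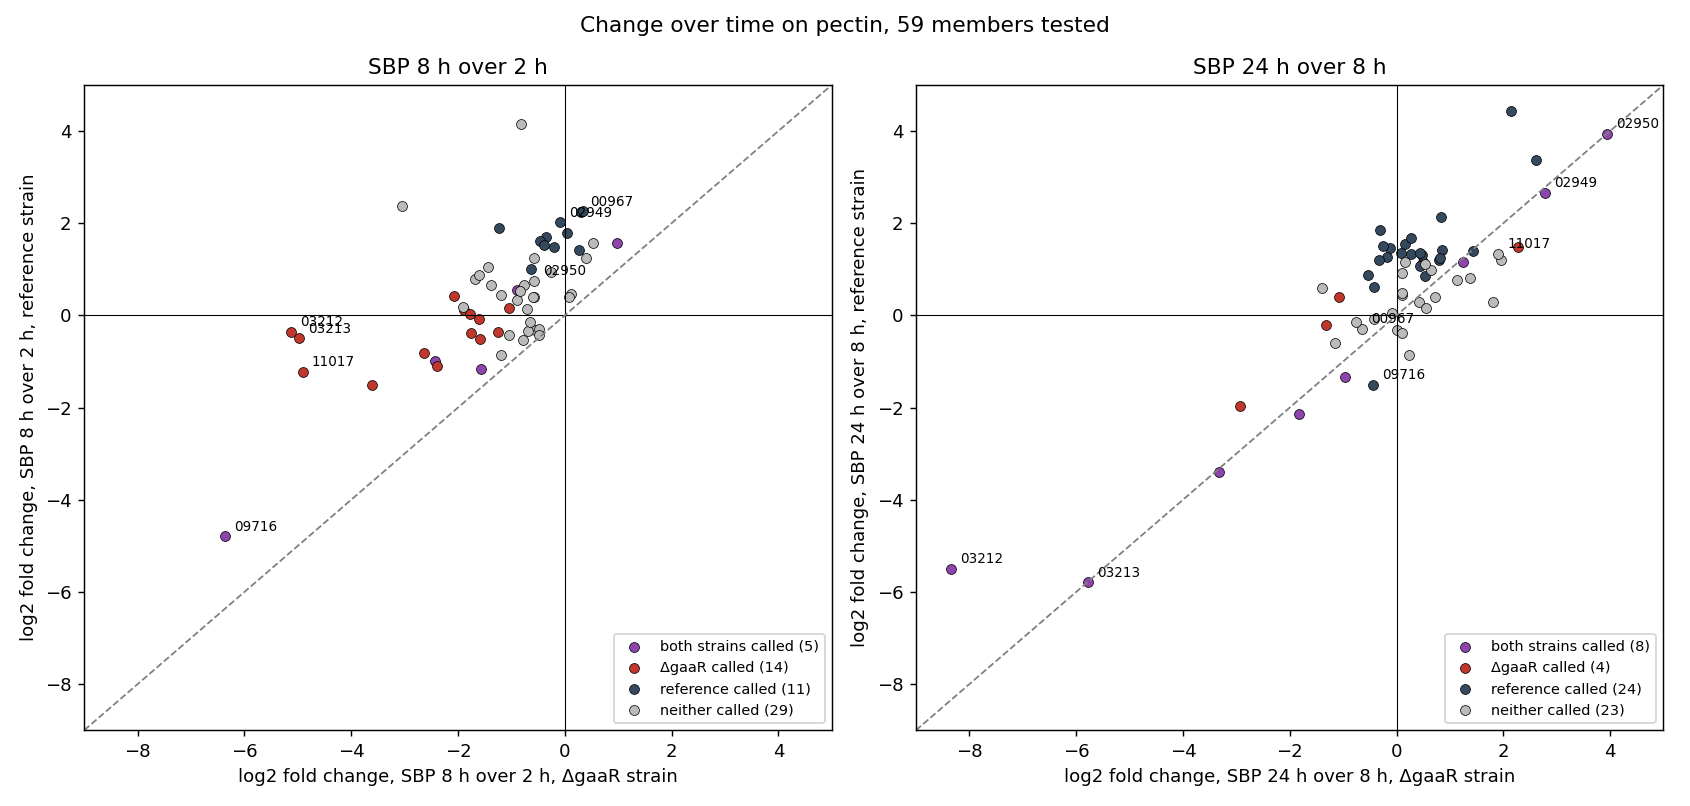
Each point is 1 of 59 members tested, with its fitted log2 fold change in ΔgaaR on the x axis and in the reference on the y axis, for SBP 8 h over 2 h on the left and 24 h over 8 h on the right, coloured by the strain in which it was called. The dashed line marks equal change, and fitted values of genes with 3 reads or fewer in a group, such as NRRL3_03212 at 24 h, are not bounds. At 8 h over 2 h all 59 points lie above the line, which follows largely from the rule. At 24 h over 8 h 23 members were called higher in the reference and not called in ΔgaaR (14.6% of all genes tested).

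From 8 h to 24 h more members were called higher in the reference than in ΔgaaR. Fitted changes were above 0 for 44 of 59 members in the reference and for 37 in ΔgaaR. In the reference 26 of 59 were called higher (23.5% of all genes) and 6 lower (21.4%). The median log2 fold change there was 0.92, beside 0.05 over all genes tested. In ΔgaaR 4 were called higher (14.0%) and 8 lower (15%), with a median of 0.16 beside 0.01. The difference between strains was not tested, because the rule used both late comparisons. The 26 were 14 without reference replicate 1 at 24 h, 13 without reference replicate 1 at 8 h and 15 without reference replicate 2 at 8 h. The 4 were 7 with DESeq2, 8 without a filter, 13 with limma on log2(FPKM + 1), and 2 without ΔgaaR replicate 2 at 8 h or at 24 h. NRRL3_06956 rose by 1.68 in the reference (SE 0.40, adjusted p = 0.003), to 257 and 244 FPKM at 24 h, and NRRL3_03814 by 1.27 (SE 0.27, adjusted p = 0.0012), to 507 and 649 FPKM. NRRL3_02256 rose in the reference by 4.43 (SE 0.96, adjusted p = 0.0016), with libraries far apart at 16.5 and 3.59 FPKM, and by 2.94 without reference replicate 1 at 24 h. Without reference replicate 1 at 8 h no read is left at 8 h, and the fitted change of 8.58 is no bound. NRRL3_01741 fell in ΔgaaR by 3.33 (SE 0.48, adjusted p = 7.9e-05) and in the reference by 3.39 (SE 0.54, adjusted p = 8.9e-05). Both its libraries at 24 h lay below 2 FPKM in either strain. Of 60 members with a mean of at least 1 FPKM on SBP, 36 (60.0%) were highest at 2 h in ΔgaaR and 43 (71.7%) were highest at 24 h in the reference. Among all 9968 such genes the shares were 27.4% and 41.9%, and the choice of members bears on both, since it asks for a high ΔgaaR and a low reference level at 2 h.

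In some members of high level the ΔgaaR replicates lay far apart at 2 h. NRRL3_10463 had 322 and 1609 FPKM in ΔgaaR on GA, against 409 and 392 FPKM in the reference, and 1521 and 352 FPKM in ΔgaaR on SBP at 2 h, against 294 and 304 FPKM in the reference. NRRL3_03515 had 331 and 1586 FPKM in ΔgaaR on GA, against 318 and 316 FPKM in the reference, and 1210 and 226 FPKM in ΔgaaR on SBP at 2 h, against 233 and 246 FPKM in the reference. In each of these 2 genes only 1 ΔgaaR library per condition stood far above the reference, replicate 2 on GA and replicate 1 on SBP. Together with NRRL3_01958, NRRL3_02050 and NRRL3_11017 they were the 5 members over 2-fold apart in this way in both conditions. At a mean of at least 10 FPKM they were 11.9% of the 42 members, against 1.04% of 7086 genes. The choice of members bears on this share, since 1 high ΔgaaR library can carry a mean past the threshold. Other members of high level were closer in the ΔgaaR libraries. NRRL3_03814 had 366 and 386 FPKM in ΔgaaR on GA, against 120 and 184 FPKM in the reference, and 635 and 481 FPKM in ΔgaaR on SBP at 2 h, against 249 and 265 FPKM in the reference. NRRL3_07652 had 126 and 103 FPKM in ΔgaaR on GA, against 52.3 and 49.7 FPKM in the reference, and 250 and 220 FPKM in ΔgaaR on SBP at 2 h, against 87.4 and 64.0 FPKM in the reference. NRRL3_04038 had 358 and 515 FPKM in ΔgaaR on GA, against 77.4 and 76.8 FPKM in the reference, and 444 and 301 FPKM in ΔgaaR on SBP at 2 h, against 171 and 194 FPKM in the reference.

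**Figure D5:**
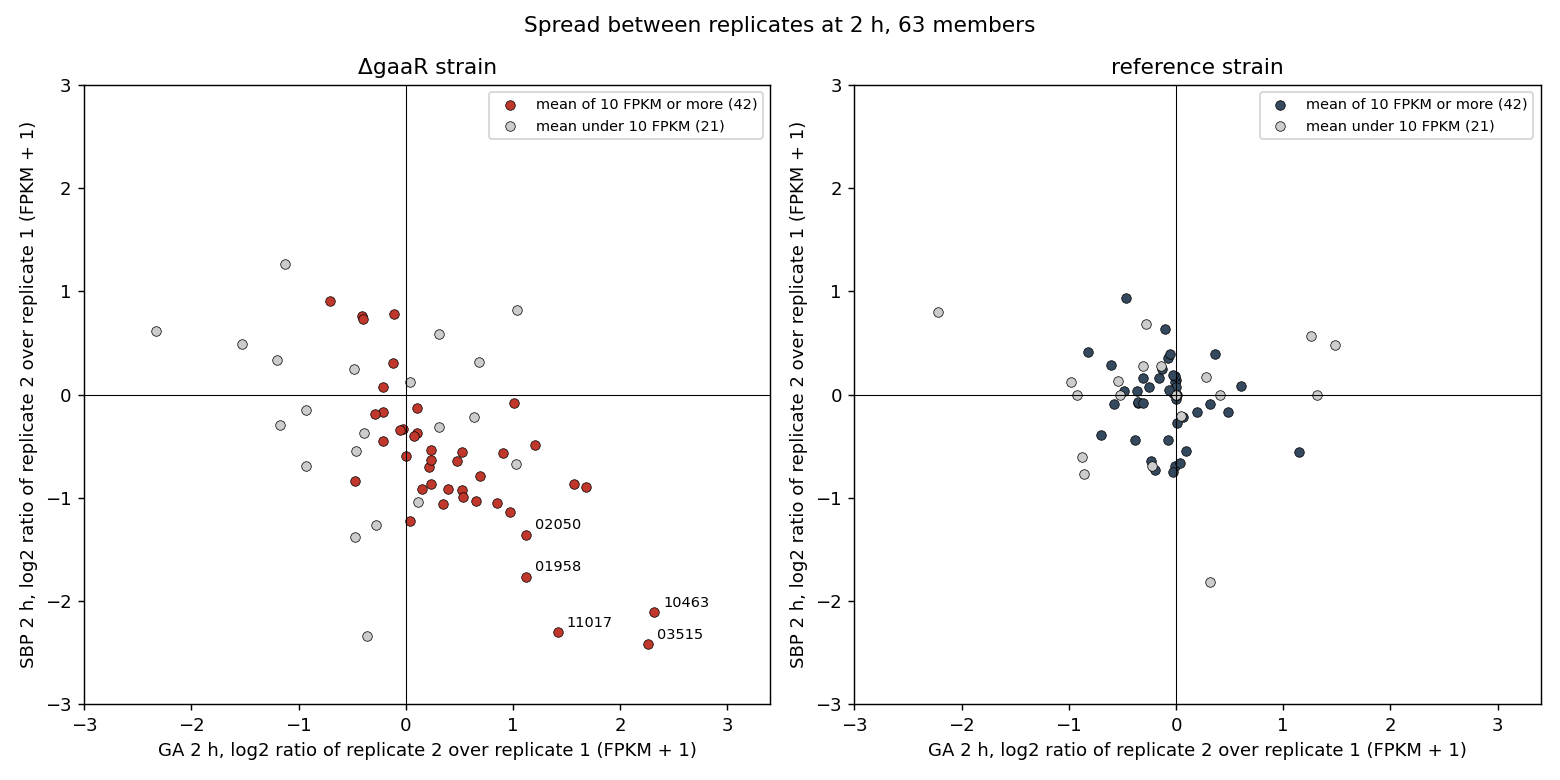
Each point is 1 of 63 members, with the log2 ratio of replicate 2 over replicate 1 on GA at 2 h on the x axis and on SBP at 2 h on the y axis, for ΔgaaR on the left and the reference on the right. In ΔgaaR 29 of the 42 members with a mean of at least 10 FPKM lie to the lower right of the origin, and in the reference the points gather around 0.

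In the middle and low range of level, NRRL3_04337 had 35.1 and 44.9 FPKM in ΔgaaR on GA, against 0.88 and 0.75 FPKM in the reference, and 81.0 and 38.2 FPKM in ΔgaaR on SBP at 2 h, against 9.91 and 16.0 FPKM in the reference. NRRL3_02954 had 25.5 and 37.3 FPKM in ΔgaaR on GA, against 13.9 and 8.13 FPKM in the reference, and 36.4 and 17.8 FPKM in ΔgaaR on SBP at 2 h, against 10.2 and 7.51 FPKM in the reference. In neither gene did the strains overlap at 2 h. By mean over the 4 ΔgaaR libraries at 2 h, 21 members had at least 100 FPKM, 26 had 10 to 100 FPKM and 16 had under 10 FPKM, with a median of 39.4 FPKM in ΔgaaR and 11.5 FPKM in the reference. At the low end 3 members had no read in any of the 4 reference libraries at 2 h and at most 5 reads in a ΔgaaR library, so their place among the members rests on few reads.

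Coding lengths varied widely among members. Their median was 867 bp, with a range of 249 to 2757 bp, against 1278 bp over all genes. Among genes with a mean of at least 10 FPKM it was 883 bp for members and 1263 bp for all, and the 55 genes with a log2 ratio of at least 1 in every condition had a median of 894 bp. Under 600 bp were 21 of the 63 members (33.3%) and 12.97% of all genes, and no test was made of this difference. By tag the members were scattered: 2 pairs had consecutive tags, 1 more pair, NRRL3_06956 and NRRL3_06958, lay 2 tags apart, and no 3 members stood within 3 tags of each other in a row. Of 6 genes for the uptake and breakdown of GA and its repressor, by tags recalled from publications, none was a member. Their log2 ratios at 2 h lay between -6.67 for *gaaB* and -1.58 for *gaaD*, genes of GA breakdown, both on SBP.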

How the data were processed

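Each library had 1 file, which per the file headers lists genes with their length, expected count and FPKM. Expected counts are as the authors deposited them, not normalized, and 548 of 168277 listed values (0.33%) were not whole. FPKM values are also the authors' own, taken as deposited and scaled by gene length and library total. Tools named in the submitters' processing notes are RSEM, BWA and Bowtie2, with versions and roles not given in the sources used here. Unlisted genes were taken as 0. Lengths are multiples of 3, so coding lengths. After rounding, the expected counts of all genes entered edgeR's quasi-likelihood test (edgeR 4.0.16 under R 4.3.3, TMM scaling, filterByExpr, two-sided, 16 libraries in 1 fit of 8 groups, 8 residual degrees of freedom, Benjamini-Hochberg over 10003 genes, called under 0.05). SE is the size of a log2 fold change divided by the square root of the test's F statistic, an approximate standard error. Where a group had no read, a floor of 3 reads per library gave a bound, and where it had 1 to 3 reads the ratio is given with its 95% counting interval. Alternatives used DESeq2 1.42.0, limma 3.58.1, RLE scaling, no filter, a replicate block and each library left out. Same-numbered replicates are not stated to be paired. Members named were the 15 of the highest 2 h level in ΔgaaR, the 10 of the largest ratio with at least 10 FPKM, the 2 highest and 2 lowest called per within-strain comparison, and those nearest the thresholds. Members outside these were named where a count of them was small, after their values were seen. Members and lists were chosen with earlier results of these data known. Tags of *gaaR* and the GA genes were recalled from publications. Python 3.11.15, numpy 2.4.6, pandas 2.3.3 and matplotlib 3.10.9 were used for the rest.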

Additional observations from a re-analysis of the deposited data

Results flagged for a closer look

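In 3 named members both ΔgaaR libraries moved one way and both reference libraries the other, with both changes called. The difference itself was not tested, since the rule bears on it. On the log2(mean FPKM + 1) scale, NRRL3_03212 changed on SBP over GA at 2 h by -1.22 in ΔgaaR and 1.14 in the reference, a difference of -2.36. NRRL3_03213, with the next tag, changed by -1.79 in ΔgaaR and 1.23 in the reference, a difference of -3.01. NRRL3_07652 changed at 8 h over 2 h on SBP by -0.75 in ΔgaaR and 0.67 in the reference, a difference of -1.42. In edgeR's test the reference change of NRRL3_07652 was called at 0.55 (SE 0.21), and 7 of 9 alternatives lost that call. A called fall in ΔgaaR with a called rise in the reference was seen for 2 of 59 members on SBP over GA (3.98% of genes tested). At 8 h over 2 h it was seen for 1 of 59 (1.64%). By the order of libraries alone, with no call asked for, opposite moves were seen for 3 members on SBP over GA, against 16.2% of all genes. They were seen for 10 members at 8 h over 2 h, against 13.97%, and for 3 members at 24 h over 8 h, against 19.4%.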

How the results depend on the processing

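The count of 63 members was 90 with a pseudocount of 0.1 FPKM (52 of them among the 63), 59 with TMM-scaled FPKM (55 shared) and 49 to 91 without single libraries. Without single libraries, members called higher and lower on SBP over GA were 4 to 11 and 8 to 20 in ΔgaaR and 6 to 10 and 4 to 7 in the reference. At 8 h over 2 h they were 0 to 1 and 9 to 34 in ΔgaaR and 10 to 11 and 1 to 3 in the reference, the 0 being 1 in edgeR's test at an unadjusted p under 0.05 and 1 with DESeq2 on all libraries. At 24 h over 8 h they were 2 to 4 and 7 to 8 in ΔgaaR and 13 to 21 and 5 to 6 in the reference. Members called higher at 24 h over 8 h in ΔgaaR, 4 as reported, were 7 with DESeq2, 13 with limma on log2(FPKM + 1) and 8 with no filter on low counts. Of 71 called changes of named members, 31 lost the call under at least 1 alternative and 0 changed direction. With the replicate number as a block, these counts of members called stayed within 1.5 times, for example 18 members lower at 8 h over 2 h in ΔgaaR without the block and 18 with it. The block ended the calls of NRRL3_02050 and NRRL3_03465 at 24 h over 8 h (adjusted p = 0.057 and 0.051) and of NRRL3_07652 at 8 h over 2 h (0.052), all in the reference. Same-numbered ΔgaaR libraries at 2 h ran against each other between GA and SBP (correlation of deviations over 10003 genes -0.35, other within-strain pairs -0.06 to 0.17). A crossed pairing, chosen after seeing the data, gave 8 members higher and 12 lower on SBP over GA and 1 higher and 17 lower at 8 h over 2 h in ΔgaaR. Depth limits the 4 members not tested and changes resting on 3 reads or fewer.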

Other observations

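Genes within a few tags of the pairs with consecutive tags were looked at after the members' values were seen. Of these NRRL3_02954 is a member, and the 3 genes described here are not. Beside NRRL3_03213, NRRL3_03214 had 1.37 and 1.08 FPKM in ΔgaaR on GA, against 23.0 and 19.8 FPKM in the reference. On GA this was the opposite direction to its neighbour. On SBP at 2 h NRRL3_03214 was low and went the same way as its neighbour. It had 1.06 and 5.27 FPKM in ΔgaaR there, against 0.5 and 0.23 FPKM in the reference. A few tags before NRRL3_03212, NRRL3_03208 had 61.0 and 35.8 FPKM in ΔgaaR on GA, against 3.02 and 4.60 FPKM in the reference, and on SBP at 2 h 15.7 and 62.3 FPKM in ΔgaaR, against 4.67 and 5.84 FPKM in the reference. Its log2 ratio was 0.05 at 8 h and 1.22 at 24 h, past the limit of the rule. Beside NRRL3_02950, NRRL3_02951 had 408 and 520 FPKM in ΔgaaR on GA, against 79.0 and 80.5 FPKM in the reference, and on SBP at 2 h 122 and 87.8 FPKM in ΔgaaR, against 76.7 and 90.2 FPKM in the reference, where the strains overlapped. At 24 h it had 21.6 and 23.9 FPKM in ΔgaaR and 12.7 and 14.4 FPKM in the reference, low where NRRL3_02950 was high.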
